A study of Mus musculus with 20 samples.

Results

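The proximal signalling genes of the T cell receptor were described in donor T cells that did or did not lack *Dnmt3a*. The set held 9 genes, namely the CD3 subunits *Cd3d*, *Cd3e*, *Cd3g* and *Cd247*, the kinases *Lck*, *Fyn* and *Zap70*, and the adaptors *Lat* and *Lcp2*. They were chosen by name for their function, and all 9 were found among the 17101 genes of the table. RNA-Seq had been performed on 20 libraries of T cells sorted from the spleens of recipient mice on day +10 after allo-BMT, with 4 libraries in each of 5 groups. From WT donors there were CD4+ and CD8+ cells, and from KO donors CD4+, CD8+ and double positive (DP, CD4+CD8+) cells. DP cells from WT donors were not analysed here. KO donors carried floxed *Dnmt3a* (CD4-Cre 2loxP in the labels), with Cre under the *Cd4* promoter on the B6 background, and WT donors were their littermates. Donors were 6 to 12 weeks old, and the recipients, B6D2F1 females, were 8 to 12 weeks old. All groups therefore came from an alloreactive setting, with no untransplanted group among the libraries. Cre under this promoter acts from the thymic stage at which developing T cells carry CD4, so that it reaches both CD4+ and CD8+ cells.

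The T cell receptor has no enzymatic activity of its own, and its signal is passed on by the CD3 chains. When the receptor binds its ligand, LCK and FYN phosphorylate the tyrosine motifs of CD3γ, CD3δ, CD3ε and the ζ chain (the product of *Cd247*), and the kinase ZAP-70 docks on them. ZAP-70 then phosphorylates the adaptors LAT and SLP-76 (the product of *Lcp2*), on which the enzymes that raise calcium and activate Ras are assembled. The amount of surface receptor is known to depend on every CD3 chain being made.

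In the RefSeq annotation of GRCm38.p6, *Cd3g*, *Cd3d* and *Cd3e* lie side by side on chromosome 9, within 40092 bases. *Cd3g* (44969572 to 44980431, minus strand) and *Cd3d* (44981769 to 44987052, plus strand) point away from each other, with starts 1338 bases apart. *Cd3e* (44998735 to 45009663) lies on the minus strand. *Cd247* (165779952 to 165871153, plus strand) and *Zap70* (36761798 to 36782821, plus strand) are on chromosome 1. *Lck* is on chromosome 4 (129548344 to 129573641, minus strand), *Lat* on chromosome 7 (126363827 to 126369705, minus strand), *Fyn* on chromosome 10 (39369743 to 39565381, plus strand) and *Lcp2* on chromosome 11 (34046928 to 34092281, plus strand). *Cd247* is the only one of the 4 CD3 genes outside the cluster, and *Pou2f1* is among the genes that overlap it. The bases just before the starts of the clustered CD3 genes are printed here because *Cd3d* and *Cd3g*, the divergent pair, both stood far above their group in 1 of the DP libraries, whereas their neighbour *Cd3e* did not. They run in the direction of transcription, in lower case, with CpG dinucleotides, the substrate of DNMT3A, in capitals. The stretches are chr9:44980432-44980681 for *Cd3g* (minus strand), chr9:44981536-44981768 for *Cd3d* (plus strand) and chr9:45009664-45009861 for *Cd3e* (minus strand), from RefSeq for GRCm38.p6.
Cd3g: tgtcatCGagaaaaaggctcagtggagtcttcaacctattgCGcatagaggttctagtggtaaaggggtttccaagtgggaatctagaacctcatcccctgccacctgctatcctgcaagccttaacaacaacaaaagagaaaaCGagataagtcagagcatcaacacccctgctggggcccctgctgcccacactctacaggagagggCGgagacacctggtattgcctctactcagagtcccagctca
Cd3d: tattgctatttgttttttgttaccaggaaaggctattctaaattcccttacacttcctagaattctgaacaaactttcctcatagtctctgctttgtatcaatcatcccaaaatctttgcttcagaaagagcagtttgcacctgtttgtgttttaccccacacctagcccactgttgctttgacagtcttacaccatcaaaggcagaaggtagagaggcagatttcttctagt
Cd3e: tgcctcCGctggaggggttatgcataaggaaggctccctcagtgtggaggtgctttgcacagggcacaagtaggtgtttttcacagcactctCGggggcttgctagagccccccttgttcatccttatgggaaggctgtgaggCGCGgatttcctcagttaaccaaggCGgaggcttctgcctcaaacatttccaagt
The shown stretch held 0 CpG for *Cd3d*, 4 for *Cd3g* and 5 for *Cd3e*. Counted over a whole promoter window of 300 bases (250 before and 50 after the start), the number was 1 for *Cd3d*, 3 for *Cd247*, 4 for *Cd3g* and 8 for *Cd3e*. The window of *Cd247* (chr1:165788431-165788730) belongs to a start inside the gene, not to the first base of the span given above. The median over all 32851 windows was 7, and 14.1% of the windows held at most 1. The windows of *Lcp2* and *Fyn* lay at the ends of the range, with 0 and 31 CpG. The E-box CANNTG, read the same on both strands, was found in all 12 windows of the 9 genes and in 72.3% of all windows. The RUNX motif TGTGGT, searched on both strands, was in 3 of the 12 (1 each of *Lat*, *Lck* and *Zap70*) and in 16.8% of all windows. These matches describe the letters only, and methylation was not measured in these libraries. The study also sequenced bisulfite-treated DNA of the sorted subsets, which was not analysed here.

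Reads counted on genes numbered 37547651 to 46966318 per library. *Dnmt3a* was lower in every KO library (650 to 2007 normalized counts) than in every WT library (3542 to 5171), although the deleted part was not looked at separately. The labelled subsets matched *Cd4*, *Cd8a* and *Cd8b1*, with the exception that KO CD4+ replicate 1 held 3771 normalized counts of *Cd8a*, against 78.3 to 227 in the other KO CD4+ libraries. In KO DP libraries *Cd4* was at 8758 to 15351, between KO CD8+ (302 to 458) and KO CD4+ libraries (44804 to 74386). *Cd8a* in KO DP libraries (41594 to 68516) overlapped with that in KO CD8+ libraries (45783 to 68740). KO DP replicate 3 stood apart with 11783 genes with reads, against 13203 to 14198 in the other DP libraries. The 5 neutrophil markers summed to 0 to 455 in KO libraries 1, 2 and 4 of each subset, to 1888 to 5815 in the 3 libraries numbered KO 3, and to 1383 to 3130 in WT libraries. The 5 B cell markers summed to 646 to 2282 in KO and to 55.1 to 266 in WT libraries, almost all of it *Cd79b*, while *Ms4a1* and *Pax5* were at or near 0 at the median of every group. The sums of the 6 macrophage and monocyte markers overlapped between KO (2442 to 6107) and WT CD8+ libraries (2721 to 4203), but not between KO (1150 to 1668) and WT CD4+ libraries (1682 to 2312). The sums of the 4 NK cell markers in the table overlapped between KO and WT in both subsets, but single markers did not. *Klrb1c* was higher in KO (220 to 1547 against 111 to 177 in CD4+ and 672 to 3066 against 70.1 to 312 in CD8+ libraries), *Eomes* was lower in KO CD8+ libraries (1280 to 2193 against 3519 to 4824), *Tyrobp* was lower in KO CD4+ libraries (37.3 to 103 against 111 to 202), and the defining marker *Ncr1* was between 0 and 12.9 throughout. The part of these differences in the results below was not tested.

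Over the 20 libraries, each of the 9 genes had a mean normalized count above that of at least 97.7% of all genes. Together they took 0.414% to 0.607% of the reads of a library. Normalized counts are reads divided by a size factor per library, and are proportional to transcript length, so levels were compared between genes per kilobase of exon (kb, the union of curated RefSeq exons). On this scale *Cd3g* was the highest at 30392 normalized counts per kb over the 20 libraries, followed by *Lck* at 19052, *Lat* at 17162, *Cd3d* at 17122 and *Cd3e* at 16011. *Zap70* (8582), *Fyn* (6513), *Lcp2* (4935) and *Cd247* (3926) were lower. *Cd3g* ranked 101 and *Cd247* 829 among 16294 genes with a length. In the order of the 5 group means, neighbouring groups overlapped for every gene with 3 exceptions. These were the step from WT CD8+ down to WT CD4+ for *Cd3e*, the step from KO CD8+ down to WT CD8+ for *Cd247*, and the step from KO CD4+ down to WT CD8+ for *Lcp2*.

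**Figure D1:**
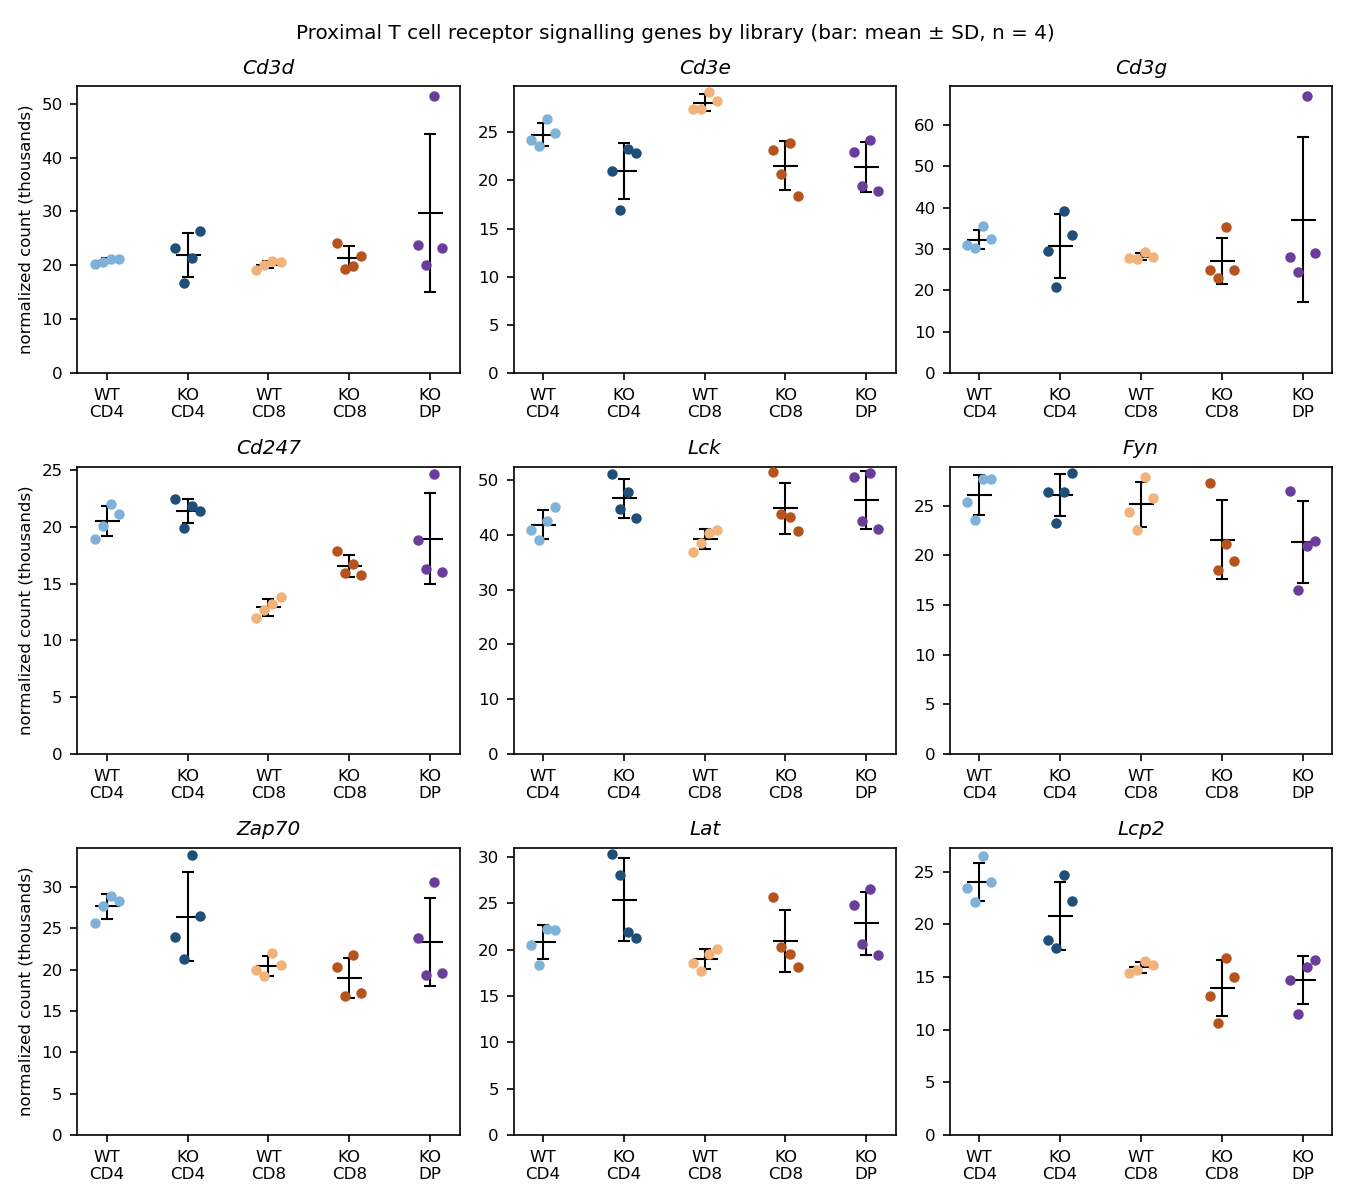
Normalized counts of the 9 genes in each of the 20 libraries (points) by group on the x axis, with the mean ± SD (bars, n = 4), on axes that start at 0. KO DP replicate 3 stood far above the other DP libraries for *Cd3d* (51470) and *Cd3g* (66950), and the 4 WT CD8+ libraries were the lowest for *Cd247* (12015 to 13797).

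The first comparison asked which of these genes depended on *Dnmt3a* in CD8+ cells. Among the CD3 chains, *Cd3e* fell and *Cd247* rose in KO CD8+ cells, and no kinase or adaptor passed the test. The normalized counts of *Cd3e*, the subunit that pairs with both CD3γ and CD3δ, were 27380, 27410, 29178 and 28266 in the WT CD8+ libraries and 23132, 20612, 23917 and 18334 in the KO CD8+ libraries. No KO library reached the WT range, and KO CD8+ replicate 4 was the lowest. The mean was 28058 ± 852 (SD, n = 4) in WT and 21499 ± 2538 (SD, n = 4) in KO CD8+ cells, which on the log2 scale is -0.39 (SE 0.09, adjusted p = 0.0133 by limma), or -23.8%. The normalized counts of *Cd247*, which encodes the ζ chain with most of the receptor's tyrosine motifs, were 12015, 12700, 13181 and 13797 in WT and 17850, 15932, 16707 and 15739 in KO CD8+ libraries. All KO libraries were above all WT libraries. Its mean went from 12923 ± 754 to 16557 ± 958 (SD, n = 4 each), which is 0.36 higher on the log2 scale (SE 0.07, adjusted p = 0.00722 by limma), or 28.1%. For both genes the 2-sided exact permutation p was 0.0286, the smallest that 4 libraries against 4 can give. Thus 2 of 9 members passed the test in CD8+ cells, where 25.2% of all 12383 genes tested did, and the groups did not overlap for 2 members against 30.6% of all genes. The share of members called was close to the background. The median log2 fold change of the 9 members was -0.08, and that of all genes tested was -0.04. In bulk libraries a smaller share of cells that carry a transcript and less of it per cell cannot be told apart. Both calls held in all 8 fits that left out 1 library (log2 fold change -0.45 to -0.32 for *Cd3e* and 0.32 to 0.39 for *Cd247*).

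The remaining members showed smaller differences in CD8+ cells, and their groups overlapped. *Cd3d* and *Cd3g* had log2 fold changes of 0.07 (SE 0.08) and -0.08 (SE 0.12). *Lck*, the kinase that opens the cascade, ranged from 36878 to 40938 in WT and from 40748 to 51536 in KO CD8+ libraries, 0.19 higher on the log2 scale (SE 0.09, adjusted p = 0.132 by limma). *Fyn*, the other Src family kinase, ranged from 22549 to 27884 in WT and from 18501 to 27302 in KO libraries (log2 fold change -0.23, SE 0.12, limma adjusted p = 0.192). In KO CD8+ cells a single library, replicate 1, had *Fyn* at the WT level. Without it the log2 fold change was -0.35 (limma adjusted p = 0.0172), in a fit that called 3393 of 12371 genes. This was the 1 fit of the 8 leaving out a library in which *Fyn* passed, and without replicate 2 it was -0.16. KO CD8+ replicate 3 likewise had by far the most *Cd3g* of its group, 35421 against 23032 to 24981. Without it the log2 fold change of *Cd3g* was -0.21 (limma adjusted p = 0.0345), in a fit that called 4092 of 12415 genes. *Cd3g* too passed in 1 of the 8 such fits, and without replicate 2 it was -0.0053. *Zap70* (-0.11, SE 0.09), *Lat* (0.13, SE 0.11) and *Lcp2* (-0.21, SE 0.12) did not pass the test, with limma adjusted p values of 0.404, 0.387 and 0.231.

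In CD4+ cells none of the 9 members passed the test, against 18.4% of all 12391 genes tested. At an adjusted p under 0.05, edgeR and DESeq2 on whole reads called 0 members. At an unadjusted p under 0.05, limma called 1 member, against 4508 of all 12391 genes. That member was *Cd3e*, with 24170, 23516, 26325 and 24896 normalized counts in WT CD4+ libraries and 20937, 16885, 23273 and 22878 in KO CD4+ libraries. The groups did not overlap, although the highest KO library lay just under the lowest WT library. The log2 fold change was -0.25 (SE 0.11, limma adjusted p = 0.120), and it was -0.36 (adjusted p = 0.0421) after quantile normalization. It was the only member without overlap, against 25.6% of all genes. *Cd247* had 18923, 20074, 22043 and 21095 in WT and 22476, 19947, 21823 and 21378 in KO CD4+ libraries, and the groups overlapped (log2 fold change 0.06, SE 0.08, limma adjusted p = 0.584). Of the kinases, *Lck* was 0.16 higher on the log2 scale (SE 0.09), *Zap70* stood at -0.09 (SE 0.13) and *Fyn* differed by 0.00023 (SE 0.09). *Lat*, the membrane scaffold, had 30323 and 28070 in KO CD4+ replicates 1 and 2 but 21898 and 21285 in replicates 3 and 4, against 18306 to 22192 in WT libraries. Only the first pair was above the WT range, and the log2 fold change was 0.28 (SE 0.13, limma adjusted p = 0.138). *Lcp2* ran the other way, with 18499 and 17800 in replicates 1 and 2 and 24671 and 22192 in replicates 3 and 4, against 22155 to 26458 in WT (log2 fold change -0.22, SE 0.11, limma adjusted p = 0.184). Replicate 1 was also the KO CD4+ library with *Cd8a* reads, and without it no member passed in this comparison either.

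**Figure D2:**
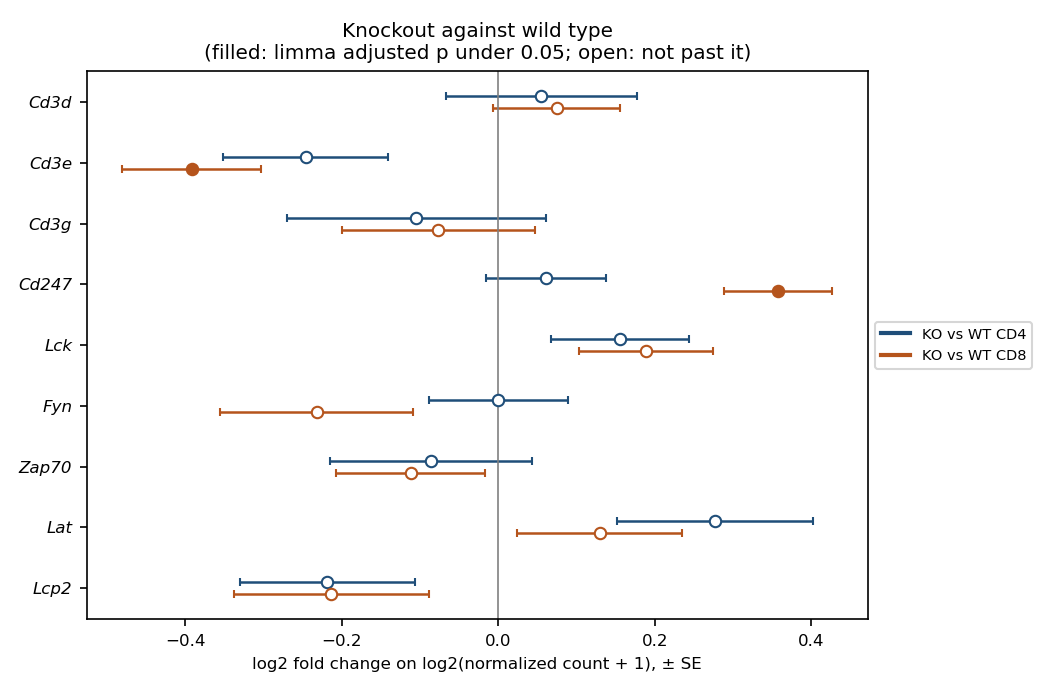
Log2 fold change ± SE (x axis, on log2(normalized count + 1)) of KO against WT cells for each of the 9 genes (y axis) in CD4+ (blue) and CD8+ (orange) cells. The 2 filled points are *Cd3e* (-0.39) and *Cd247* (0.36) in CD8+ cells.

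Whether the effect of the genotype differed between the subsets was tested by the interaction term over 16 libraries. No member passed, and 0.0161% of all 12446 genes did. At an adjusted p under 0.05, edgeR and DESeq2 called 0 members. At an unadjusted p under 0.05, limma called 1 member, against 793 of all 12446 genes. The largest term among the members was that of *Cd247*, at 0.30 on the log2 scale (SE 0.10, limma unadjusted p = 0.00668, limma adjusted p = 0.522). Its log2 fold change in KO was 0.36 in CD8+ cells and 0.06 in CD4+ cells, where it did not pass the test. A block for the library number pairs the CD4+ and CD8+ libraries of the same number. With it, the limma adjusted p of *Cd247* was 0.0410, and 173 of the 12446 genes passed. The term for *Cd3e* was -0.15 (SE 0.14, limma adjusted p = 1.00), and those of the other 7 members lay between -0.23 and 0.03. The KO comparisons in CD4+ and CD8+ cells rest on different libraries. However, equal numbers paired these libraries within a genotype, and the test without the block leaves the pairing out.

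The ratio of 2 genes within a library does not depend on how the library was scaled. These ratios were chosen after the values were seen and are given without a test. Each has *Cd3e* as denominator, whose own log2 fold change in KO was -0.39 in CD8+ and -0.25 in CD4+ cells. Higher ratios in KO are therefore not independent of the lower *Cd3e*. The ratio of *Cd247* to *Cd3e* was 0.439, 0.463, 0.452 and 0.488 in WT CD8+ libraries, and 0.772, 0.773, 0.699 and 0.859 in KO CD8+ libraries. It was 0.783, 0.854, 0.837 and 0.847 in WT CD4+ libraries and 1.07, 1.18, 0.938 and 0.934 in KO CD4+ libraries. The KO libraries were thus above the WT libraries in both subsets, and KO CD8+ cells overlapped with WT CD4+ cells. In KO DP cells the ratio was 0.821, 0.841, 1.02 and 0.849. The ratio of *Cd3d* to *Cd3e* was also higher in KO, at 0.831 to 1.19 against 0.698 to 0.735 in CD8+ cells and at 0.916 to 1.15 against 0.804 to 0.880 in CD4+ cells. For *Cd3g* to *Cd3e* the ranges were 1.08 to 1.48 against 0.995 to 1.01 in CD8+ cells. In CD4+ cells they overlapped, at 1.23 to 1.68 in KO and 1.28 to 1.35 in WT.

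**Figure D3:**
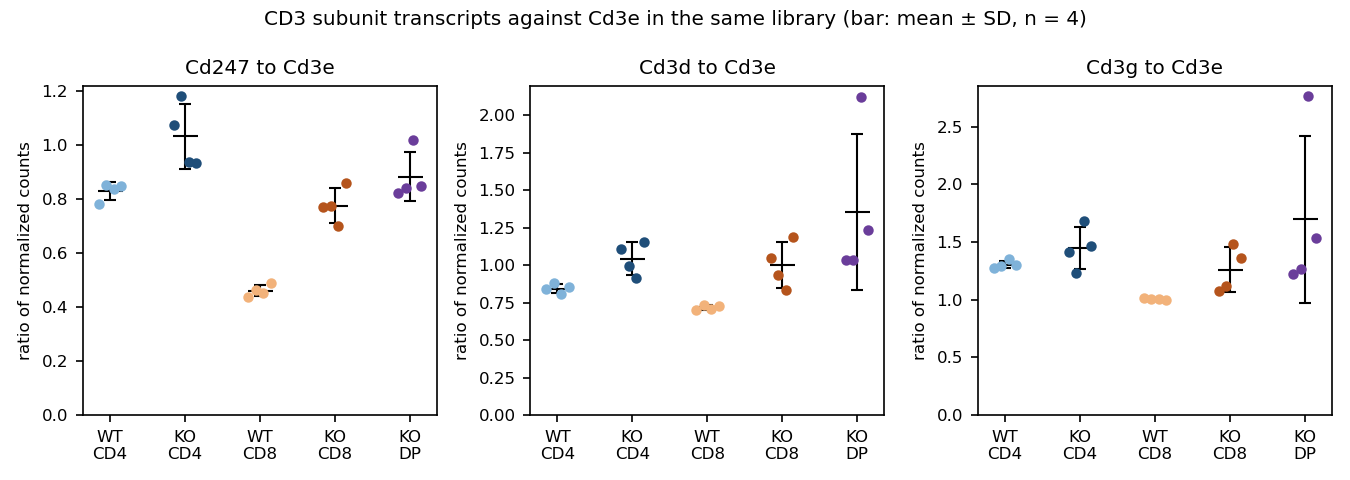
Ratio of the normalized counts of *Cd247*, *Cd3d* and *Cd3g* to *Cd3e* in the same library (y axis, from 0) for each library (points) by group, with the mean ± SD (bars, n = 4). The *Cd247* to *Cd3e* ratio averaged 0.461 in WT CD8+ and 0.775 in KO CD8+ cells.

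Between the WT subsets, the share of members called was not far from the background. In WT cells, 5 of 9 members passed the test between CD8+ and CD4+ cells, against 44.5% of 12559 genes tested. The groups did not overlap for the same 5, against 41.8% of all genes. The median absolute log2 fold change was 0.18 for the members and 0.24 for all genes tested. *Cd247*, *Lcp2*, *Zap70* and *Cd3g* were lower and *Cd3e* was higher in WT CD8+ cells. The normalized counts of *Lcp2*, which encodes SLP-76, were 23463, 22155, 26458 and 24012 in CD4+ and 15391, 15635, 16527 and 16148 in CD8+ libraries. Each CD8+ library was far below each CD4+ library. The log2 fold change was -0.59 (SE 0.05, limma adjusted p = 1.41e-06). For *Zap70*, which docks on the phosphorylated CD3 chains, the values were 25562, 27717, 28934 and 28248 in CD4+ and 19985, 19245, 21977 and 20510 in CD8+ libraries, again with no overlap (log2 fold change -0.43, SE 0.05, limma adjusted p = 2.07e-05). *Cd247* had the largest difference of the members, at -0.67 (SE 0.06, limma adjusted p = 6.95e-07), or -37.0%. *Cd3g* differed by -0.19 (SE 0.05, limma adjusted p = 0.00904) and *Cd3e* by 0.18 (SE 0.05, limma adjusted p = 0.00595). The CD3 chains therefore did not all run the same way between the WT subsets. *Cd3d*, *Lck*, *Fyn* and *Lat* did not pass, with log2 fold changes of -0.05, -0.09, -0.05 and -0.13. Within WT, equal numbers pair the libraries, and with the number as a block *Lat* passed as well (adjusted p = 0.0196). That fit called 6134 of the 12559 genes. When all 20 libraries shared 1 estimate of the spread, 2 members passed, *Cd247* and *Lcp2*, as did 1610 of the 12559 genes.

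In KO cells 1 of 9 members, *Cd247*, passed the test between CD8+ and CD4+ cells, against 4.22% of 12189 genes, and 2 had no overlap, against 10.1%. *Cd247* was lower in KO CD8+ than in KO CD4+ cells (log2 fold change -0.37, SE 0.08, adjusted p = 0.0366 by limma). This call was fragile when a library was left out, in fits without a block for the number. The adjusted p rose to between 0.0756 and 0.119 without KO CD4+ replicate 1, 3 or 4 or KO CD8+ replicate 2, 3 or 4. With all libraries kept, *Cd247* passed in 8 of 9 settings, and not in limma without a filter (adjusted p = 0.0522). *Lcp2* had 18499, 17800, 24671 and 22192 in KO CD4+ and 13151, 10660, 16836 and 15048 in KO CD8+ libraries. These values did not overlap, and the log2 fold change was -0.59 (SE 0.16, limma adjusted p = 0.0758), against -0.59 with an SE of 0.05 in WT cells. *Zap70* stood at -0.46 (SE 0.15, limma adjusted p = 0.149) and *Lat* at -0.28 (SE 0.15, limma adjusted p = 0.451). With the number as a block, which takes out the level that the libraries of a number share, 4 members were lower in KO CD8+ cells. This fit called 2305 of the 12189 genes, against 514 without the block. The adjusted p was 0.000238 for *Lcp2*, 0.00332 for *Zap70* and 0.0175 for *Lat*, and *Cd247* also passed. *Cd3e*, which was higher in WT CD8+ than in WT CD4+ cells, differed by 0.04 (SE 0.13) in KO cells.

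**Figure D4:**
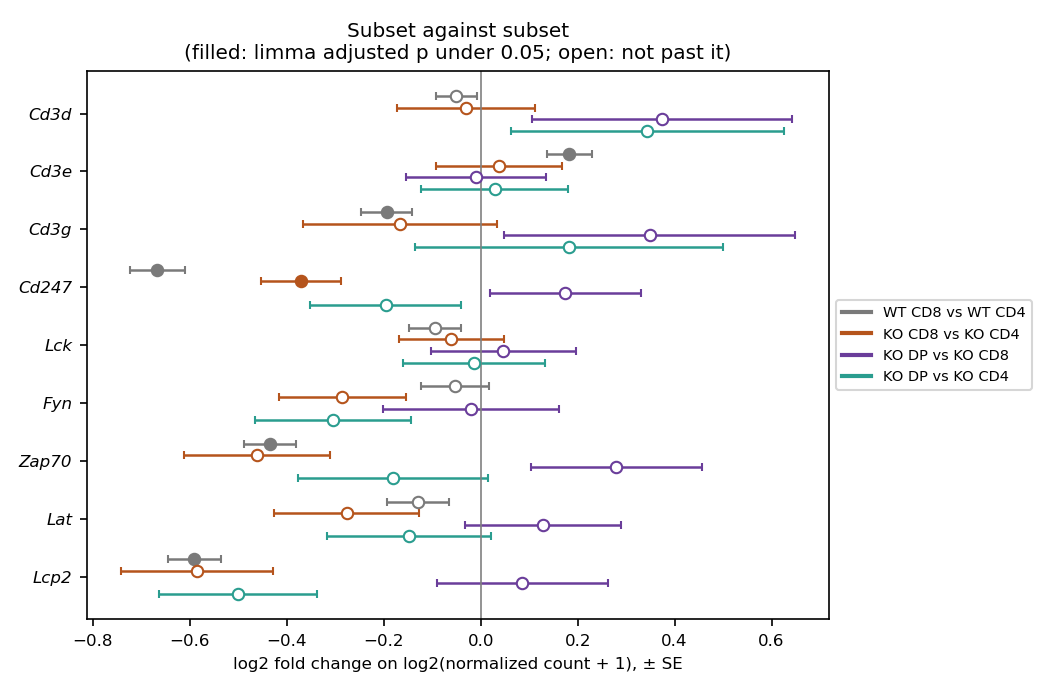
Log2 fold change ± SE (x axis, on log2(normalized count + 1)) between subsets for each of the 9 genes (y axis), for CD8+ against CD4+ cells in WT (grey) and KO (orange), and for KO DP against KO CD8+ (purple) and KO CD4+ cells (green). The 5 filled grey points and the filled orange point of *Cd247* are past the threshold, and no point of the DP comparisons is.

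DP cells, which carried both coreceptors, were compared with both single positive KO subsets, and the 2 comparisons share the DP libraries. No member passed the test against KO CD8+ cells, where 0.00823% of 12153 genes did and no member was without overlap (2.7% of all genes). At an adjusted p under 0.05, edgeR and DESeq2 called 0 members. At an unadjusted p under 0.05, limma called 0 of the 9, against 237 of all 12153 genes. The log2 fold changes lay between -0.02 for *Fyn* and 0.37 for *Cd3d*. Against KO CD4+ cells no member passed either, with 1.95% of 12175 genes called, and edgeR and DESeq2 called 0. At an unadjusted p under 0.05, limma called 1, *Lcp2*, against 1814 of all 12175 genes. *Lcp2* was the only member without overlap, against 11.2% of all genes, with 14741, 11513, 15969 and 16632 in DP libraries, all under the KO CD4+ libraries. Its log2 fold change was -0.50 (SE 0.16, limma adjusted p = 0.175). With the number as a block its limma adjusted p was 0.0354, in a fit that called 860 of the 12175 genes. *Lcp2* in DP cells was 0.09 (SE 0.18) above KO CD8+ cells. *Cd247* in DP cells, at 18841, 16285, 24645 and 16046, had a mean between those of KO CD8+ and KO CD4+ cells, 0.17 (SE 0.16) above the first and -0.20 (SE 0.16) from the second on the log2 scale. Of the 4 values, replicate 3 was above both means and replicates 2 and 4 were below both, and without replicate 3 the differences were 0.041 and -0.33.

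The divergent neighbours *Cd3d* and *Cd3g* were set apart by a single DP library. *Cd3d* had 23780, 19995, 51470 and 23305 and *Cd3g* 28046, 24546, 66950 and 29006 in DP replicates 1 to 4. Replicate 3 was 2.30 and 2.46 times the mean of the other 3 DP libraries, a higher ratio than that of 92.2% and 93.5% of all 12158 genes. *Cd3e*, their neighbour, was at 1.19 times in the same library, and *Fyn* at 0.976 times. In this library 7 of 9 members were above all other DP libraries and 0 below them, but it was also above all others for 35.5% and below all others for 37.1% of all genes. Without it, the log2 fold change of DP against KO CD8+ cells went from 0.37 to 0.07 for *Cd3d* and from 0.35 to 0.02 for *Cd3g*. This was the library with the fewest genes with reads and with the highest neutrophil marker sum (5815), and the part of these in the values was not tested.

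The spread between libraries was larger in KO than in WT cells. The median SD over the 9 members on the log2 scale was 0.09 in WT CD4+ and 0.07 in WT CD8+ cells, but 0.22 in KO CD4+, 0.18 in KO CD8+ and 0.28 in KO DP cells (0.16 without DP replicate 3). The 848 genes with a mean of at least 10000 normalized counts had median SDs of 0.08, 0.05, 0.18, 0.17 and 0.30 in the same 5 groups, close to those of the members. *Cd247* was the steadiest member in KO CD4+ and KO CD8+ cells, with an SD of 0.07 and 0.08, whereas *Cd3g* in KO CD4+ (0.39) and *Lcp2* in KO CD8+ cells (0.28) varied most.

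Of 51 other genes of the T cell receptor pathway that were listed, 50 were in the table and 49 were expressed highly enough to be tested. In CD4+ cells 4 were higher and 2 lower in KO (12.2% of the 49, against 18.4% of all genes), with a median log2 fold change of 0.02. In CD8+ cells 13 were higher and 5 lower (36.7%, against 25.2% of all genes), with a median of 0.11. *Fcer1g*, an Fc receptor chain with a tyrosine motif that can take the place of the ζ chain, had the largest rise in CD4+ cells, from 102 to 216 normalized counts in WT to 443 to 658 in KO libraries (log2 fold change 1.82, SE 0.24, limma adjusted p = 0.00303). The CD8+ libraries went from 227 to 461 up to 623 to 1816 (1.64, SE 0.37, limma adjusted p = 0.0128). *Prkcq*, the kinase PKCθ, rose by 0.62 and 0.68 on the log2 scale in CD4+ and CD8+ cells, *Cd6*, a surface receptor that tunes the T cell receptor signal, by 0.54 and 1.05, and the adaptor *Skap1* by 0.30 and 0.45. *Pag1*, which recruits the inhibitory kinase CSK, rose in CD8+ cells by 0.86, and had 0.34 (limma adjusted p = 0.0625) in CD4+ cells.

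Among the falls in CD8+ cells was *Syk*, the relative of *Zap70*, with 1185 to 1631 normalized counts in WT and 118 to 666 in KO libraries (log2 fold change -2.01, SE 0.44, limma adjusted p = 0.0114). *Zap70* itself did not pass in either subset. The inhibitory adaptor *Lax1* fell by 0.71 on the log2 scale in CD8+ cells, the ubiquitin ligase *Cblb* by 0.50, *Sh2d2a*, which encodes an adaptor that binds LCK, by 0.48 and the adaptor *Dok2* by 0.33. In CD4+ cells the falls were *Tespa1* (-0.61, SE 0.12, limma adjusted p = 0.00940) and *Dgka*, a diacylglycerol kinase that dampens Ras signalling (-0.38, SE 0.11, limma adjusted p = 0.0363). *Cd4*, used for the sort, had 302 to 458 normalized counts in KO and 9.88 to 79.6 in WT CD8+ libraries. *Syk* is also transcribed by myeloid and B cells, and *Fcer1g* by myeloid cells. The marker sums of these cells are given above, and their part in the values of both genes was not tested. Of these 49 genes, *Cd4* alone passed the interaction test.

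**Figure D5:**
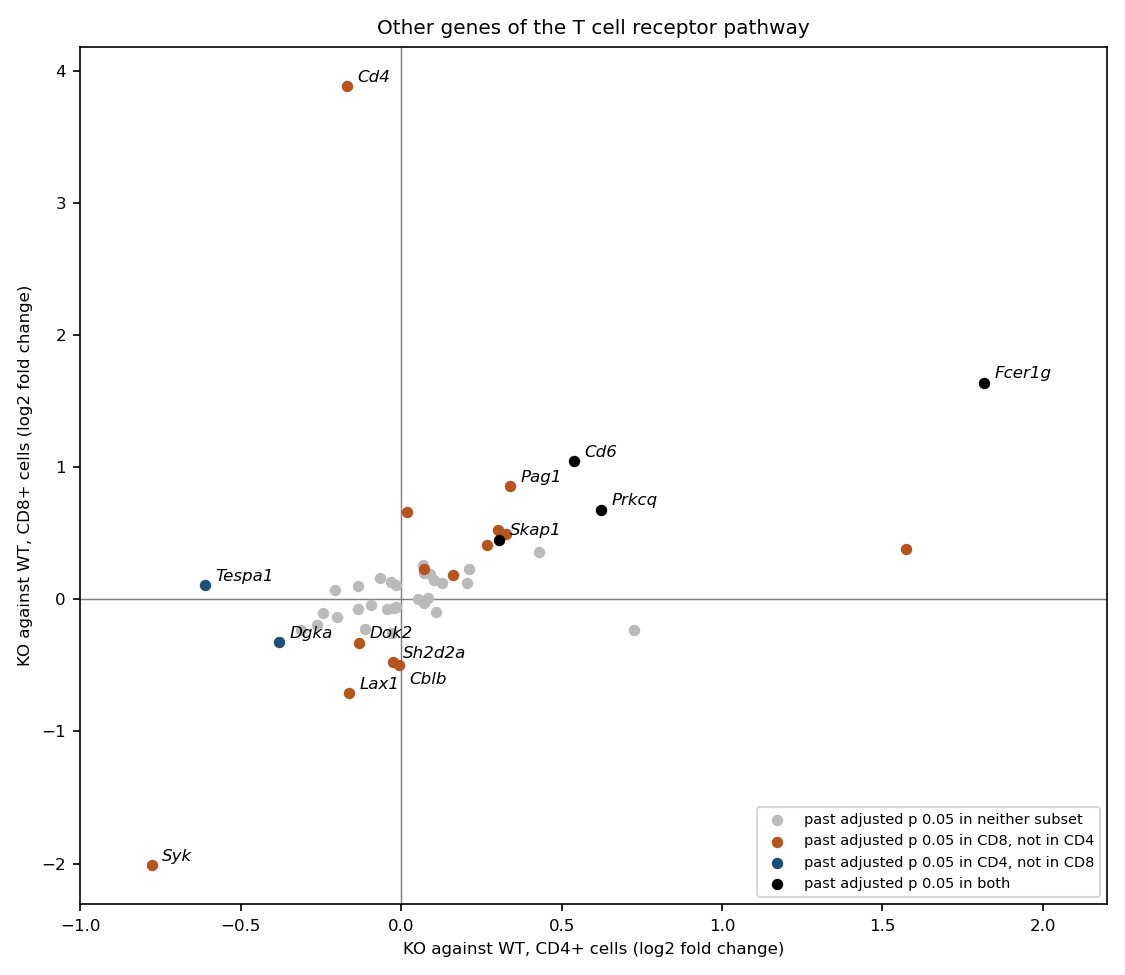
Log2 fold change of KO against WT in CD4+ (x axis) and CD8+ cells (y axis) for the 49 other genes of the T cell receptor pathway that were tested, coloured by the subset in which the limma adjusted p was under 0.05. *Fcer1g* lay highest in CD4+ cells (1.82) and *Syk* lowest in CD8+ cells (-2.01).

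The genes whose values ran most like those of each member were found by Pearson correlation over the 20 libraries, which share 5 groups and, within a genotype, library numbers. They are a description only. *Lcp2* was most like *Il21* (r = 0.983), *Trim8* (0.978) and *Izumo1r* (0.974). *Cd247* was most like *Wsb2* (0.948), *Bcl10* (0.947), itself on the pathway list, and *Slfn2* (0.914). *Cd3d* was most like *Rps15a* (0.976) and the genes *Rps15a-ps6* and *Rps15a-ps4* (0.970 and 0.968), near copies that may share reads with *Rps15a*, and without KO DP replicate 3 the first value was 0.876. *Cd3g* was most like *Mpst* (0.940), *Tm2d3* (0.926) and *Hsbp1* (0.913), and *Cd3e* most like *Lrrc45* (0.888), *Pex6* (0.877) and *Slc28a2* (0.869). Of the kinases, *Lck* was most like *Bet1l* (0.934), *Sept1* (0.927) and *Gsn* (0.887), *Fyn* most like *Rasal3* (0.896), *Tox2* (0.895) and *Gimap3* (0.876), and *Zap70* most like *Ptpn6* (0.928), *Fam104a* (0.920) and *Ndfip1* (0.912). *Lat* was most like *Rras* (0.881), *Sept1* (0.878) and *Chmp1b* (0.867). Among the members, the highest r were 0.85 for *Lck* and *Lat*, 0.80 for *Cd3d* and *Cd3g* and 0.79 for *Zap70* and *Lcp2*. This order rested on KO DP replicate 3, since without it r was 0.84, 0.37 and 0.88 for the same pairs. The next highest were then 0.77 for *Cd3g* and *Zap70* and 0.74 for *Cd3g* and *Lcp2*. For the neighbours *Cd3e* and *Cd3g* it was 0.50.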

How the data were processed

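The authors isolated poly(A) RNA, prepared strand-specific libraries, aligned read pairs to mm10 with STAR (2.7.2b per the labels), counted them by strand on gene exons, and used DESeq2 for normalization. The deposited values are a signal, namely counts divided by 1 size factor per library, from which whole reads were recovered for 100% of the values (relative tolerance 1e-06). Samples were grouped by genotype and subset in the labels. Whether a library came from 1 recipient was not given in the sources used here, so P values measure the spread between libraries.

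Groups were compared by limma 3.58.1 (R 4.3.3, eBayes with trend) after adding 1 to each value and taking log2. Genes whose mean in the compared libraries was under 10 were left out. Tests were 2-sided, and P values were Benjamini-Hochberg adjusted over all genes tested, with a threshold of 0.05. Fold changes are on that log2 scale. Exact permutation tests cannot go below 0.0286. Alternatives were a pseudocount of 10, no filter, quantile normalization, a common 75th percentile, whole reads in edgeR 4.0.16 (quasi-likelihood) or in DESeq2 1.42.0, a joint fit of 20 libraries, leaving out each library, and a block for the library number. The main limma, edgeR and DESeq2 fits were tested on counts simulated for KO against WT CD4+ cells, with changes larger than those of any member. The other comparisons and alternatives were not tested in this way.

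Equal numbers paired libraries within a genotype. Deviations from group means correlated at 0.412 to 0.498 between KO CD4+ and CD8+, 0.271 to 0.457 between KO DP and CD4+, 0.338 to 0.538 between KO DP and CD8+, and 0.120 to 0.196 between WT libraries of the same number, whereas KO and WT libraries of the same number gave -0.0024 to 0.0990.

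The members and lists were chosen with earlier results of these data known. Named were the 9 members, up to 5 of the largest rises and 5 of the largest falls of pathway genes past the threshold in each KO against WT comparison, and for each member the 3 genes of highest correlation among those with a mean of at least 50. *Was* of the pathway list, and markers such as *Hba-a1*, *Klra8* and *Trdc*, were not analysed here. Of the erythroid list 1 of 6 genes was in the table (0 to 521 normalized counts), and of the gamma delta T cell list 1 of 6 (0 to 5.49). The 6 T cell markers summed to 110828 to 170435. A result for 1 listed marker is not reported here.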

Additional observations from a re-analysis of the deposited data

Results flagged for a closer look

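Among 45 groups of 4 libraries (9 genes in 5 groups), 3 held a library whose gap to its nearest neighbour, divided by the range of the group, was above Dixon's critical value. Chance flags about 1 in 20 groups. KO DP replicate 3 had 51470 normalized counts of *Cd3d* (gap over range 0.880) and 66950 of *Cd3g* (0.895). KO CD8+ replicate 3 had 35421 of *Cd3g* (0.843). All 3 values belong to libraries numbered KO 3, and the KO CD4+ library of that number had the most *Cd3g* of its group as well, 39154.

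The genotype by subset interaction of *Cd247* was 0.30 on the log2 scale. Its log2 fold change in KO was 0.36 in CD8+ cells and 0.06 in CD4+ cells, where it did not pass the test. The interaction passed with the library number as a block (limma adjusted p = 0.0410) and not without it (limma adjusted p = 0.522). The fit with the block called 173 of 12446 genes.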

How the results depend on the processing

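The calls of *Cd3e* and *Cd247* in KO against WT CD8+ cells were kept under every alternative run except the number as a block, with which 0 members passed; KO and WT share only the numbers 2 and 3, which do not pair them, so that fit rests on few libraries. Counts of members called changed in these cases. Quantile normalization gave 1 in KO against WT CD4+ cells, and the block gave 1 in the interaction. KO DP against KO CD4+ cells gave 1 in the joint fit and 1 with the block. WT CD8+ against CD4+ cells gave 2 in the joint fit. KO CD8+ against CD4+ cells gave 0 without a filter, 2 with DESeq2, 2 in the joint fit, 4 with the block, and 0 to 1 when a library was left out. Leaving out 1 library gave 2 to 3 members in KO against WT CD8+ cells (3 without KO CD8+ replicate 1 or 3) and 5 to 6 in WT CD8+ against CD4+ cells (6 without WT CD4+ replicate 3). Beside these cases and *Lat* in WT cells, the block changed no other call of a member. All genes called in KO CD8+ against CD4+ cells rose as well, from 514 to 955 with DESeq2, 885 in the joint fit and 2305 with the block. In KO DP against KO CD4+ cells they rose from 237 to 1459 in the joint fit and 860 with the block.

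The sign turned for members that had not passed the test. In KO against WT CD4+ cells quantile normalization gave -0.076 for *Cd3d*, -0.051 for *Cd247*, -0.051 for *Lck* and -0.11 for *Fyn*, the common 75th percentile -0.0033 for *Fyn*, and the block -0.12 for *Cd3d* and 0.011 for *Zap70*. In CD8+ cells quantile normalization gave -0.060 for *Cd3d* and -0.032 for *Lck*, and the block -0.0023 for *Cd3d* and 0.048 for *Cd3g*. edgeR gave -0.00064 for *Cd3d* in the interaction. Quantile normalization gave -0.11 for *Lck* in KO DP against KO CD8+ cells and -0.015 for *Cd3e* in KO DP against KO CD4+ cells. The cause was not tested.

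Leaving out 1 library turned the sign within these ranges. In KO against WT CD4+ cells they were -0.041 to 0.18 for *Cd3d*, -0.23 to 0.070 for *Cd3g*, -0.048 to 0.054 for *Fyn* and -0.21 to 0.010 for *Zap70*. In the interaction they were -0.10 to 0.12 for *Cd3d*, -0.15 to 0.16 for *Cd3g*, -0.036 to 0.078 for *Lck*, -0.12 to 0.10 for *Zap70* and -0.093 to 0.13 for *Lcp2*. In KO DP against KO CD8+ cells they were -0.083 to 0.047 for *Cd3e*, -0.0042 to 0.12 for *Lck*, -0.13 to 0.10 for *Fyn* and -0.036 to 0.20 for *Lcp2*. In KO DP against KO CD4+ cells they were -0.072 to 0.084 for *Cd3e*, -0.14 to 0.34 for *Cd3g* and -0.065 to 0.041 for *Lck*. In KO CD8+ against KO CD4+ cells they were -0.15 to 0.065 for *Cd3d* and -0.063 to 0.11 for *Cd3e*.

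The number of all genes called was 2274 in KO against WT CD4+ cells, 1304 in the joint fit and 30 with the block, and 3118, 2017 and 89 in CD8+ cells. When 1 library was left out it was 628 to 2963 in CD4+ cells, lowest without WT CD4+ replicate 6 and also over 1.5 times lower without WT CD4+ replicate 2, 3 or 5 or KO CD4+ replicate 1. In CD8+ cells it was 1633 to 4092, lowest without WT CD8+ replicate 6, and 1711 to 1753 without WT CD8+ replicate 2, 3 or 5. The background percentages move with these counts. The other pathway genes called in CD4+ cells numbered 6, 10 with DESeq2, 3 in the joint fit, 0 with the block and 3 to 10 when a library was left out (3 without KO CD4+ replicate 1 or any WT CD4+ library, 10 without KO CD4+ replicate 3), and in CD8+ cells 18, 2 with the block and 14 to 23 when a library was left out. At these levels counting noise is small, and the 4 libraries per group limit the precision.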

Other observations

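The other genes of the T cell receptor pathway also differed between the subsets. In WT cells 14 of 49 were higher and 24 lower in CD8+ than in CD4+ cells (77.6% called, against 44.5% of all genes tested), with a median log2 fold change of -0.17. Among the adaptors and effectors 12 of 18 were lower in WT CD8+ cells and 2 higher, and among the phosphatases, inhibitors and ligases 10 of 20 were lower and 6 higher. In KO cells 7 were higher and 5 lower (24.5%, against 4.22% of all genes), with a median of -0.07. The coreceptor genes used for the sort are among both counts. Against KO CD8+ cells, *Cd4* was the only one of the 49 that passed in KO DP cells.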
